A study of Homo sapiens with 15 samples.

Results

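The transcription factors of the epithelial-mesenchymal transition (EMT) and the marker genes VIM, CDH2 and CDH11 were followed by RNA sequencing in MDA-MB-231 cells after depletion of YAP, TAZ or both. The 10 listed genes were looked up by symbol in the count table, and 7 of the 10 had a row among its 18858 genes, namely SNAI1, SNAI2, ZEB1, ZEB2, VIM, CDH2 and CDH11. TWIST1, TWIST2 and CDH1, the other 3, had no row and were not analysed here. The authors considered genes with at least 5 reads in at least 1 library. MDA-MB-231 is an established human breast cancer cell line of mesenchymal appearance. The cells of the 5 groups were untransfected (Control), given a pool of non-targeting siRNAs (siControl), with a pool against YAP1 (siYAP), with a pool against WWTR1, the gene of TAZ (siTAZ), or with both targeting pools (siYAP+TAZ). Knockdown lasted 48 h, and every group was then kept for 5 to 6 h on gelatin before RNA was prepared. Each group had 3 libraries, 15 in all, from a single cell line. The co-transfected cells received the sum of both pools, so co-depletion and a larger amount of siRNA cannot be told apart.

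The EMT factors are zinc finger proteins (SNAI1, SNAI2, ZEB1, ZEB2) that bind E-box sequences and repress epithelial genes, among them the gene of E-cadherin. Cells that undergo the transition lose the junctions of an epithelium, raise the intermediate filament protein vimentin (VIM) and may replace E-cadherin by N-cadherin (CDH2) or by cadherin 11 (CDH11). YAP and TAZ are co-activators of the Hippo pathway that act on DNA mainly through TEAD factors, and their relation to these genes is the question that the comparisons below address.

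Total counts per library lay between 18696737 and 30107312. The siRNA targets were read first. YAP1 stood at 1013, 2764 and 761.0 normalized counts (counts scaled by the TMM factors to the mean library) in the siYAP libraries 18, 23 and 28, against 4431, 4333 and 4202 in the siControl libraries 17, 22 and 27. All 3 siYAP libraries lay below all siControl libraries, but library 23 kept far more YAP1 RNA than the others. In siYAP+TAZ, YAP1 was 2240, 2202 and 1796 in libraries 20, 25 and 30. WWTR1 stood at 828.4, 254.3 and 520.6 in the siTAZ libraries 19, 24 and 29 and at 1133, 1123 and 1284 in siYAP+TAZ, against 1995, 1850 and 1579 in siControl. In edgeR, WWTR1 in siTAZ passed the test (log2 fold change -1.74, adjusted p = 0.0187). YAP1 in siYAP (-1.51, adjusted p = 0.0992) and in siYAP+TAZ (-1.06, adjusted p = 0.0723) and WWTR1 in siYAP+TAZ (-0.62, adjusted p = 0.199) did not. The co-knockdown left more of either target than most of the single knockdown libraries did. In these bulk samples, fewer depleted cells and less depletion per cell cannot be told apart.

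Of the 7 genes, VIM was the most abundant. Per length, as RPKM (reads per kilobase of annotated exon, scaled to library size), its median over the 15 libraries was 239 (lowest 201, highest 277). SNAI2 followed with 14.0 (10.7 to 15.9) and ZEB1 with 9.16 (8.13 to 9.67), and the libraries of these 3 genes did not overlap. CDH11 had a median of 2.67 (1.42 to 3.54), SNAI1 of 1.28 (0.414 to 2.38) and ZEB2 of 0.518 (0.444 to 0.576). The ranges of CDH11 and SNAI1 overlapped, as did those of SNAI1 and ZEB2. CDH2 was last at 0.0632 (0.00506 to 0.101). With the length of the MANE Select transcript, the single reference isoform of each gene, in place of all annotated exons, ZEB2 ranked above SNAI1 (medians 1.46 and 1.28, overlapping ranges) and the other 5 genes kept their places.

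**Figure D1:**
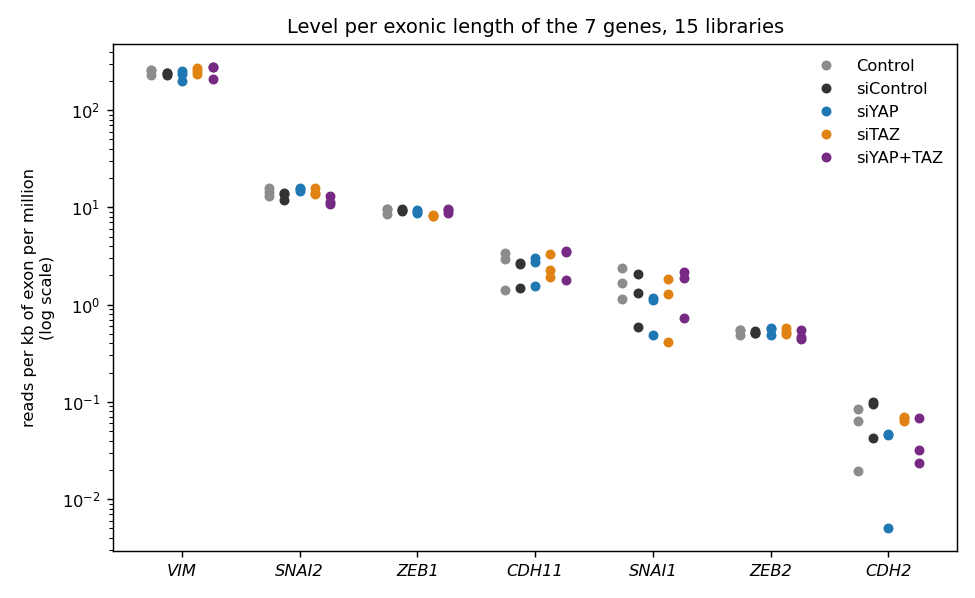
RPKM (log scale) of the 7 genes, one point per library and colours for the 5 groups. VIM lies between 201 and 277 in all 15 libraries, and CDH2 at or below 0.101.

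The identity of the cells was read from further markers. CD44 and AXL, 2 genes high in mesenchymal breast cancer lines, had 19211 to 26317 and 25087 to 43998 normalized counts. Of the 25 mesenchymal genes with a row, these included, 19 averaged 50 normalized counts or more (111 to 34735), among them MSN (32592), FN1 (16839) and NT5E (12849), and the median of the 25 means was 1168. The other 6 averaged 25.4 (SPARC), 24.1 (ACTA2), 23.1 (WNT5A), 15.9 (COL5A2), 9.48 (COL1A2) and 3.04 (LUM). The epithelial marker EPCAM was low but not at 0, with 209 to 389 reads per library, and keratins were abundant (KRT8, 21653 to 28649 normalized counts). Other epithelial genes were abundant too, with means of 9456 (KRT7), 5756 (DSP), 3319 (DSG2) and 3176 (CLDN4). ELF3 (7.06) and CRB3 (3.90) were among the low ones. Abundant genes thus came from both the mesenchymal and the epithelial list, and these levels alone do not tell the states apart. Of the luminal breast, fibroblast, endothelial and leukocyte markers 6 of 7, 3 of 7, 2 of 5 and 2 of 5 had a row, with KRT19, COL1A1, KDR and CD14 the most abundant. Among them PGR, FOXA1, LUM and PTPRC were at 0 in some libraries and had at most 7, 6, 9 and 6 reads in any. The other markers of these lists were not analysed here.

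SNAI1 (Snail) is the founding repressor of E-cadherin in the transition, and a short-lived protein made from a short gene (chr20:49982980-49988886, plus strand). Its normalized counts were 95.9, 67.6 and 46.0 in Control (libraries 16, 21 and 26), 82.5, 53.6 and 23.6 in siControl, 47.5, 45.3 and 19.5 in siYAP, 73.2, 51.6 and 16.7 in siTAZ, and 88.0, 76.3 and 29.4 in siYAP+TAZ. All groups overlapped. Values went with the run of consecutive library numbers, each of which holds 1 library of every group. Libraries 16 to 20 had a mean of 77.4 ± 18.7 (SD, n = 5) and libraries 26 to 30 of 27.0 ± 11.6, with 58.9 ± 12.7 in libraries 21 to 25, and the library of the run 26 to 30 was the lowest in all 5 groups. Against siControl, SNAI1 gave a log2 fold change of -0.50 in siYAP (SE 0.57, edgeR adjusted p = 0.819), -0.15 in siTAZ (SE 0.57, adjusted p = 0.936) and 0.23 in siYAP+TAZ (SE 0.56, adjusted p = 0.826). The 95% confidence interval in siYAP+TAZ ran from -0.97 to 1.44 and so included a level 2-fold higher. SNAI1 had 13 to 97 reads per library.

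Ratios were also taken within a run, with no test. Relative to the siControl library of the same run, SNAI1 in siYAP+TAZ had a log2 ratio of 0.09, 0.49 and 0.29 in the runs 16 to 20, 21 to 25 and 26 to 30. In siYAP the ratios were -0.77, -0.23 and -0.25, and in siTAZ -0.17, -0.05 and -0.45. Untransfected Control, with no knockdown, also lay above siControl in every run, with 0.21, 0.32 and 0.91. The log2 ratio of siYAP+TAZ over siYAP was 0.86, 0.73 and 0.54. The pooled difference for that pair was 0.74 (SE 0.57, adjusted p = 0.540). With the run added to the edgeR fit as a block it was 0.77 (SE 0.21, adjusted p = 0.0100), where 14.6% of all genes were called. What a run stands for is not given by the labels, and unless a block is named the fits described here hold no term for it.

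SNAI2 (Slug), the second Snail family repressor and the more abundant one here, lies on chr8:48917598-48921740 (minus strand). The libraries held 1109, 1228 and 1010 in Control, 1087, 1073 and 930.1 in siControl, 1231, 1139 and 1212 in siYAP, 1060, 1215 and 1084 in siTAZ, and 1005, 885.2 and 832.3 in siYAP+TAZ (normalized counts). The co-knockdown libraries were the lowest group and lay below every siYAP, siTAZ and Control library, but library 20 stood above the siControl library 27. Every siYAP library lay above every siControl library, and groups of this pair failed to overlap in 19.5% of all genes. For siYAP+TAZ against Control this share was not counted.

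SNAI2 was lower in siYAP+TAZ than in siYAP, with means of 907 ± 88.4 and 1194 ± 48.7 (SD, n = 3). The log2 fold change was -0.40 (SE 0.093, 95% confidence interval -0.59 to -0.20), a fold of 0.759, with an adjusted p of 0.0174 in edgeR's quasi-likelihood test. Without the block for the run, this was the single call among the 7 genes at an adjusted p of at most 0.05 in that comparison, where 5.13% of all genes were called and 1.7% were called as lower. It did not reach the 2-fold change that the methods also asked for. Both thresholds together were passed by 0.742% of all genes in this comparison. Non-overlapping groups alone were common in this pair (24.7% of all genes). Leaving out library 18, 25 or 30 ended the call, with adjusted p of 0.0749, 0.0695 and 0.0732 and log2 fold changes of -0.38, -0.39 and -0.34. Without library 23, in which YAP1 was least depleted, the log2 fold change was -0.44 (adjusted p = 0.0304). Within the runs of library numbers the log2 ratio of siYAP+TAZ over siYAP was -0.29, -0.36 and -0.54.

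No SNAI2 difference from siControl passed. The log2 fold change was 0.21 in siYAP (SE 0.092, adjusted p = 0.361), 0.12 in siTAZ (SE 0.093, adjusted p = 0.587) and -0.18 in siYAP+TAZ (SE 0.093, adjusted p = 0.192, edgeR). The 95% interval in the co-knockdown was -0.38 to 0.01, a fold of 0.768 to 1.01. Against Control instead of siControl the difference in siYAP+TAZ was -0.30 (SE 0.093) and passed an adjusted p of 0.05 (adjusted p = 0.0301) in the same fit, a comparison in which 19.4% of all genes were called. With Control as reference SNAI2 differed by 0.10 in siYAP (SE 0.092, adjusted p = 0.751), where the groups overlapped. In siTAZ the difference from Control was 0.0043 (SE 0.093, adjusted p = 0.986). Against siTAZ the siYAP+TAZ difference was -0.30 and did not pass (SE 0.093, adjusted p = 0.0650). In that pair 5.44% of all genes passed an adjusted p of 0.05 and 0.78% both thresholds. With the run as a block its adjusted p was 0.0067 (edgeR), where 14.8% of all genes were called. Groups of this pair failed to overlap in 23.4% of all genes. These comparisons share the siYAP+TAZ libraries and are not independent of each other.

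The siYAP and siTAZ differences of SNAI2 had one sign and the co-knockdown the other. The interaction, the log2 difference between the co-knockdown and the sum of both single knockdowns, was -0.52 (SE 0.13, 95% confidence interval -0.79 to -0.24). Its unadjusted p was 0.000951, but over all genes the adjusted p was 0.411 in edgeR and 0.144 in DESeq2. With the run as a block the adjusted p was 0.0163 in edgeR, where 0.647% of all genes were called. Without the block, 0.0106% of all genes passed an adjusted p of 0.05 in the interaction and 0.0053% both thresholds. None of the 7 genes did so in edgeR, DESeq2 or limma-voom without a term for the run of library numbers. SNAI2 and ZEB1 had an unadjusted p under 0.05 in edgeR, as did 5.85% of all genes. Depletion was not equal in the groups compared. On average WWTR1 was higher in siYAP+TAZ than in siTAZ (log2 difference 1.13, SE 0.31), and YAP1 higher than in siYAP (0.45, SE 0.37). Unequal depletion and a departure from the sum cannot be told apart here.

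**Figure D2:**
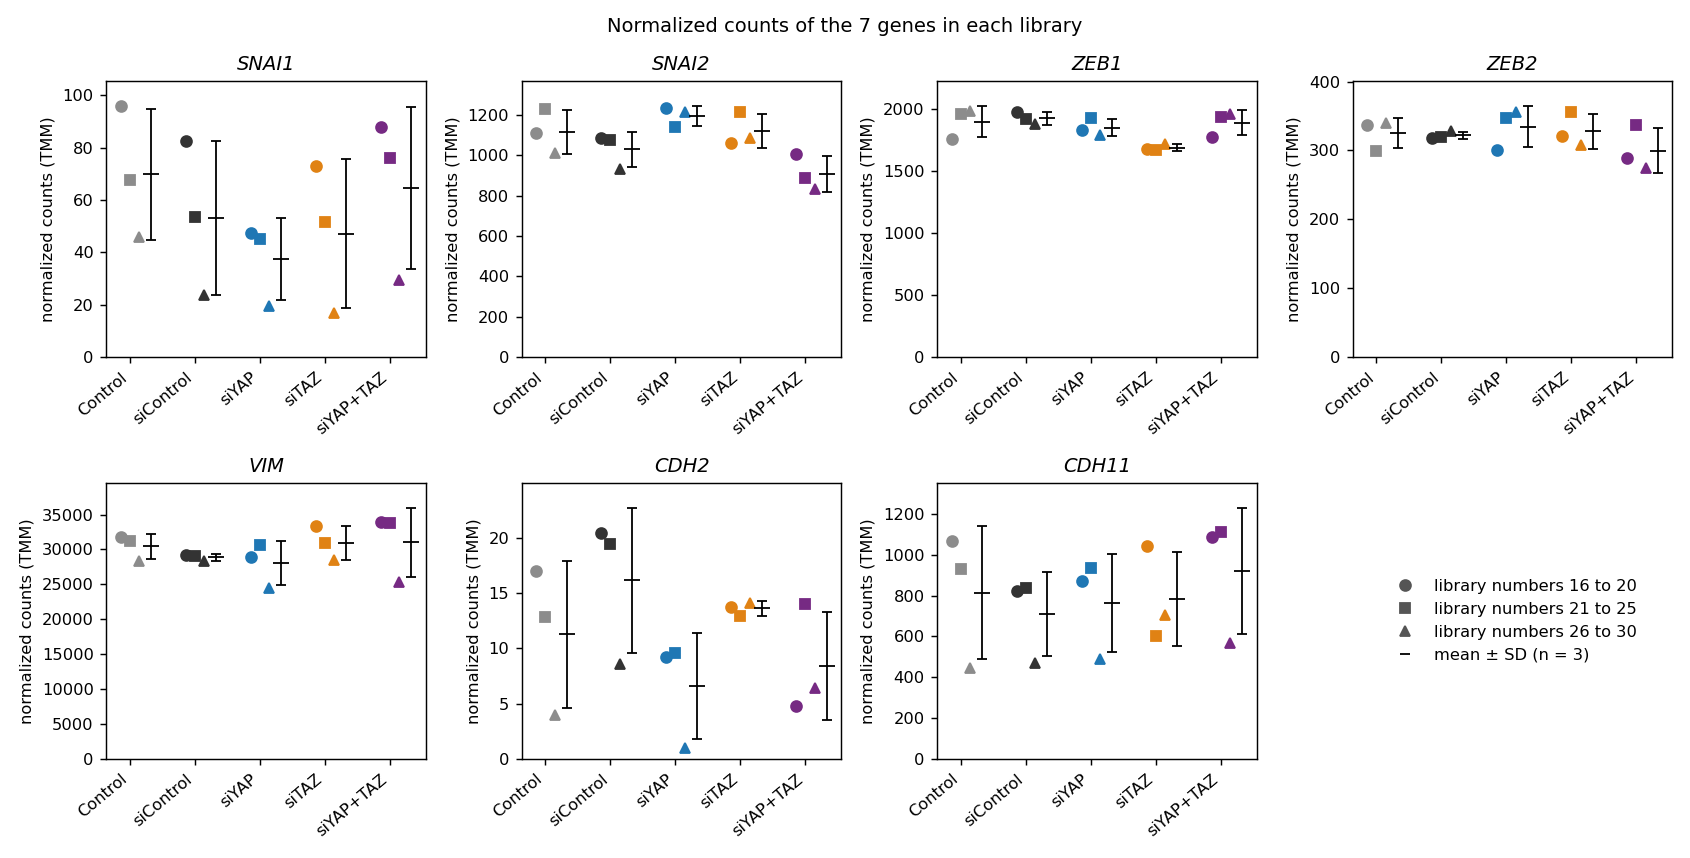
Normalized counts of the 7 genes by group. Symbols mark the run of library numbers, and bars give mean ± SD (n = 3). SNAI2 is lowest in siYAP+TAZ (832.3 to 1005), and SNAI1 is lowest in libraries 26 to 30 of every group.

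ZEB1 is a zinc finger and homeodomain repressor that is itself held down in epithelial cells by microRNAs of the miR-200 family. It occupies chr10:31318495-31529814 (plus strand), and RefSeq's promoter table (GRCh38.p14) held windows of 250 bases before and 50 after a start site for ZEB1, ZEB2, VIM and CDH2, 11 windows in all. Of these windows 7 were of ZEB1, 2 of CDH2 and 1 each of ZEB2 and VIM, so ZEB1 had most of the sequence searched. The E-box CAGGTG, or CACCTG on the other strand, which the Snail and ZEB proteins bind, was found in 2 of these 11, both of ZEB1, and in 20.6% of all 35116 windows of the table. The TEAD core GGAATG, or CATTCC on the other strand, was found in 1 of the 11, and in 14.0% of all windows. That ZEB1 window has its single E-box 57 bases before the start and CATTCC from the last base before the start onward, apart from the E-box. The 250 bases before this start site are shown because they carry, in the gene of one E-box factor, the letters these factors read (E-box in capitals).
ZEB1, chr10:31318167-31318416, plus strand: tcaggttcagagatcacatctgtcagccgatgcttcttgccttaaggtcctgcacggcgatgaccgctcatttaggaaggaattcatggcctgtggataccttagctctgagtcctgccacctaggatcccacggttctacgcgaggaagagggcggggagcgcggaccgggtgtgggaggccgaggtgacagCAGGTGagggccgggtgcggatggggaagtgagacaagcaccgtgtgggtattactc
A match of letters is not a binding site, and no binding was measured here.

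ZEB1 RNA varied little. Its normalized counts were 1753, 1955 and 1979 in Control, 1976, 1917 and 1874 in siControl, 1829, 1921 and 1791 in siYAP, 1677, 1663 and 1717 in siTAZ, and 1773, 1930 and 1958 in siYAP+TAZ. The siTAZ libraries were lower than those of each other group. Against siControl the log2 fold change in siTAZ was -0.19 (SE 0.068, 95% confidence interval -0.33 to -0.05), a fold of 0.877, which did not pass the correction (adjusted p = 0.159, edgeR). With the run as a block it was -0.19 (SE 0.063, edgeR adjusted p = 0.0489), where 10.3% of all genes were called. Groups of this pair failed to overlap in 20.9% of all genes. In siYAP the difference was -0.06 (SE 0.067, adjusted p = 0.825) and in siYAP+TAZ -0.03 (SE 0.068, adjusted p = 0.838). Of siYAP+TAZ over siTAZ it was 0.16 (SE 0.068, adjusted p = 0.187), with every co-knockdown library above every siTAZ library, as groups of this pair failed to overlap in 23.4% of all genes. The 95% interval in the co-knockdown, -0.17 to 0.12, corresponded to a fold of 0.890 to 1.08. ZEB1-AS1, an antisense gene that overlaps 4.58% of ZEB1's exonic bases, was counted at 64.3 to 122 (normalized) and differed by -0.05 in siTAZ (SE 0.19, adjusted p = 0.936).

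ZEB2, the sister gene of ZEB1 (chr2:144364364-144521057, minus strand), had 337, 300 and 339 normalized counts in Control, 318, 319 and 328 in siControl, 300, 347 and 356 in siYAP, 320, 356 and 307 in siTAZ, and 289, 336 and 274 in siYAP+TAZ. Groups overlapped throughout. Differences from siControl were 0.05 in siYAP (SE 0.10, adjusted p = 0.915), 0.03 in siTAZ (SE 0.11, adjusted p = 0.937) and -0.10 in siYAP+TAZ (SE 0.11, adjusted p = 0.570), the last with an interval of -0.32 to 0.12.

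VIM encodes vimentin, the intermediate filament protein used as the standard mesenchymal marker, and lies on chr10:17228241-17237593 (plus strand). Its normalized counts were 31722, 31280 and 28371 in Control, 29214, 29138 and 28342 in siControl, 28971, 30650 and 24540 in siYAP, 33373, 30871 and 28502 in siTAZ, and 33934, 33809 and 25280 in siYAP+TAZ. In every group the library of the run 26 to 30 was the lowest, and this run had a mean of 27007 ± 1933 (SD, n = 5) against 31443 ± 2296 and 31149 ± 1693 in the runs before it. The log2 fold change against siControl was -0.04 in siYAP (SE 0.10, adjusted p = 0.941), 0.10 in siTAZ (SE 0.10, adjusted p = 0.721) and 0.10 in siYAP+TAZ (SE 0.10, adjusted p = 0.568). The interval of the co-knockdown ran from 0.921-fold to 1.25-fold. Of its exonic bases, 24.6% overlap exons of VIM-AS1 on the other strand, and the strand setting of the counting is not given in the sources used here. VIM-AS1 had 97 to 184 reads per library against 21578 to 38756 for VIM.

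CDH2, the gene of N-cadherin (chr18:27932879-28177946, minus strand), was close to the limit of detection with 1 to 24 reads per library. Normalized counts were 17.0, 12.8 and 3.94 in Control, 20.4, 19.4 and 8.58 in siControl, 9.19, 9.54 and 1.03 in siYAP, 13.8, 12.9 and 14.1 in siTAZ, and 4.76, 14.0 and 6.42 in siYAP+TAZ. Means were lowest in siYAP (6.59 ± 4.82, SD, n = 3) and siYAP+TAZ (8.38 ± 4.91), but both groups overlapped siControl (16.1 ± 6.56). The log2 fold changes were -1.23 in siYAP (SE 0.53, adjusted p = 0.359), -0.27 in siTAZ (SE 0.50, adjusted p = 0.856) and -0.96 in siYAP+TAZ (SE 0.54, adjusted p = 0.250). The interval of the co-knockdown, -2.08 to 0.17, corresponded to a fold of 0.236 to 1.13. A difference of N-cadherin RNA was not detected at this depth.

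CDH11, a cadherin of mesenchymal cells and osteoblasts (chr16:64943753-65126112, minus strand), was the main cadherin among the 7 genes. Its normalized counts were 1067, 928 and 447 in Control, 821, 838 and 470 in siControl, 870, 936 and 491 in siYAP, 1041, 602 and 704 in siTAZ, and 1087, 1112 and 566 in siYAP+TAZ. The library of the run 26 to 30 was the lowest in 4 of the 5 groups, the exception being siTAZ, where library 24 was. Run means were 977 ± 123, 883 ± 186 and 536 ± 104 (SD, n = 5). Pooled over runs, the log2 fold change against siControl was 0.11 in siYAP (SE 0.40, adjusted p = 0.965), 0.14 in siTAZ (SE 0.40, adjusted p = 0.910) and 0.37 in siYAP+TAZ (SE 0.40, adjusted p = 0.598), with an interval of -0.52 to 1.26 for the last. Within the runs, siYAP+TAZ had log2 ratios to siControl of 0.40, 0.41 and 0.27, and siYAP of 0.08, 0.16 and 0.06, while siTAZ gave 0.34, -0.47 and 0.58.

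**Figure D3:**
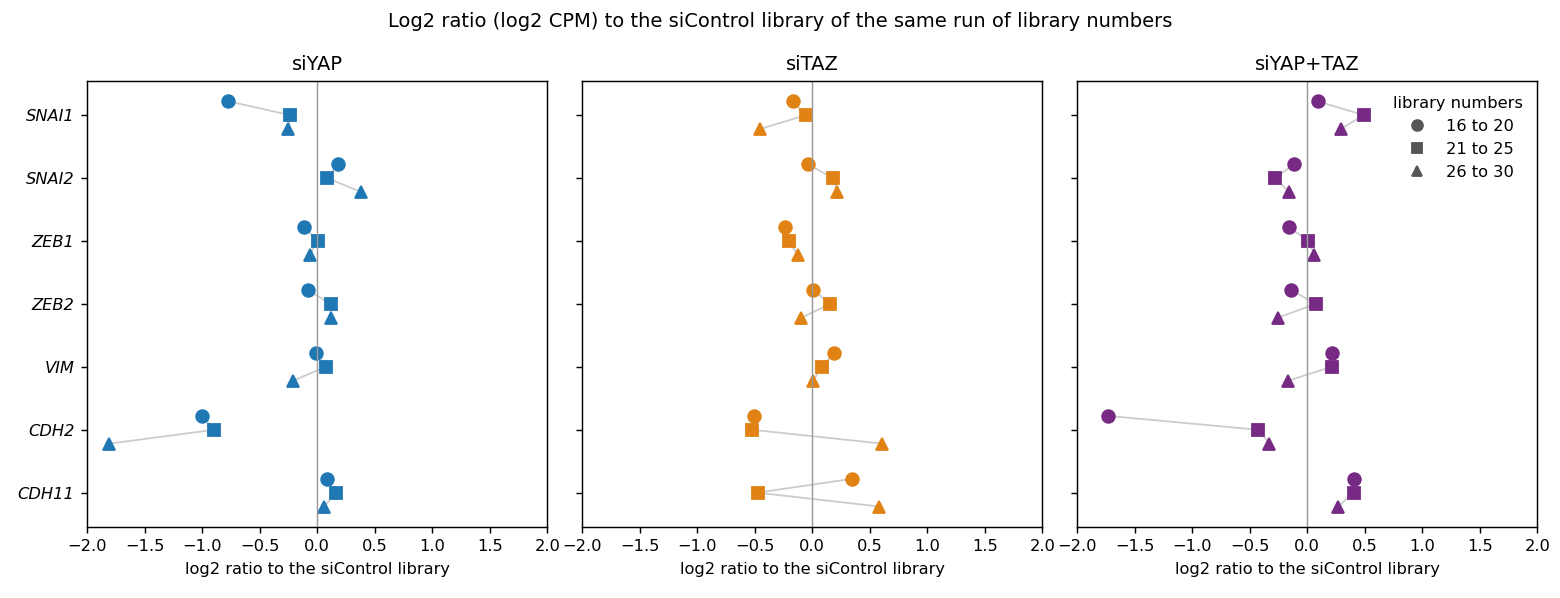
Log2 ratio of each knockdown library to the siControl library of the same run of library numbers, for the 7 genes. In siYAP+TAZ the 3 ratios lie above 0 for SNAI1 and CDH11 and below 0 for SNAI2 and CDH2, and the other 3 genes have ratios of both signs. Ratios of untransfected Control, not drawn, also lay above 0 in all 3 runs for SNAI1 and below 0 for CDH2. For SNAI2 those of Control lay above 0, and for CDH11 they had both signs.

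How much of the variation went with the run and how much with the group was described by the share of the sum of squares of log2 CPM (counts scaled to library size) over the 15 libraries. SNAI1 had 74.5% of it between runs and 19.9% between groups, CDH11 72.0% and 6.86%, and VIM 57.4% and 18.1%. For SNAI2 the shares were 12.9% between runs and 67.0% between groups, and for ZEB1 9.23% and 63.2%. The medians over the 11724 genes that averaged 50 normalized counts or more were 17.8% and 48.1%. SNAI1, CDH11 and VIM thus varied mainly with the run, and SNAI2 and ZEB1 mainly with the group. ZEB2 had 10.1% and 25.9%, and CDH2, at its few reads, 34.7% and 35.4%.

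Over all 7 genes, none passed both thresholds (adjusted p of at most 0.05 and at least a 2-fold change) in any of the 7 comparisons. Among all genes, 3.46% passed them in siYAP+TAZ against siControl, 0.0955% in siYAP and 0.212% in siTAZ. At an adjusted p of 0.05 alone, 18.4%, 0.933% and 2.03% of all genes were called in these comparisons, and again none of the 7 in edgeR, DESeq2 or limma-voom without a term for the run. At an unadjusted p under 0.05 in edgeR there were 0, 2 (SNAI2 and CDH2) and 1 (ZEB1) of the 7, beside 30.3%, 11.9% and 16% of all genes. No member separated siYAP+TAZ from siControl, as 36.4% of all genes did, and 1 of the 7 did so in siYAP, against 19.5% of all genes. The 7 genes had a median log2 fold change of -0.03 in the co-knockdown, where all genes had -0.0048. In siYAP the medians were -0.04 and 0.0025, and in siTAZ 0.03 and 0. Between siControl and Control 0% of all genes were called by either rule in edgeR, DESeq2 or limma-voom (398, 256 and 399 genes at an unadjusted p under 0.05), and among the 7 genes the lowest unadjusted p of the edgeR test was 0.232.

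**Figure D4:**
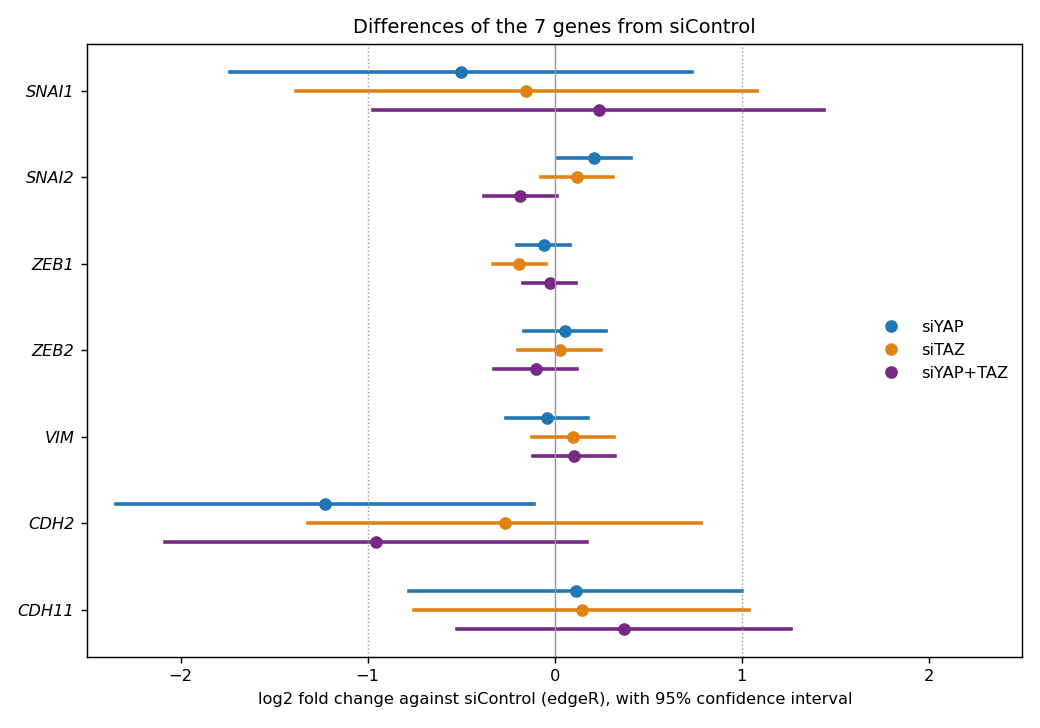
Log2 fold change against siControl (points) with its 95% confidence interval (bars) for the 7 genes in siYAP, siTAZ and siYAP+TAZ. Dotted lines mark a 2-fold change. Intervals of ZEB1, ZEB2, VIM and SNAI2 stay within it, and those of SNAI1, CDH2 and CDH11 reach beyond it.

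The surrounding pathway was read from gene lists in the co-knockdown. As a check of YAP and TAZ activity, 9 of 10 known YAP/TAZ targets fell at an adjusted p of at most 0.05, the rule for all lists here (ANKRD1, log2 fold change -1.36, CCN1, -1.17, F3, -1.02, CCN2, -0.99) and none rose, with a median of -0.98 over the 10 genes. In the list of further EMT factors and of the partners of Snail and ZEB proteins, 1 of 22 genes with a row rose and 2 fell, beside 9.97% and 8.39% of all genes. KLF4, a factor of epithelial differentiation, rose by 0.38 (SE 0.12, adjusted p = 0.0395). FOXC1, a forkhead factor linked to basal-like breast cancer, fell by 0.58 on the log2 scale (SE 0.13, adjusted p = 0.00507), and HDAC2, a histone deacetylase recruited by Snail, fell by 0.24 (SE 0.062, adjusted p = 0.0111). The median of the list was -0.01.

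Of 8 other classical and related cadherins with a row, CDH4 (R-cadherin) was the single call, beside 18.4% of all genes called. It fell by 0.68 on the log2 scale (SE 0.11, adjusted p = 0.000323), from 3038 ± 142 to 1891 ± 222 normalized counts (SD, n = 3). The median of these 8 was -0.10. Beside CDH4 only CDH24 had many reads (mean 734 normalized counts). CDH3, CDH13, CDH15, CDH18, CDH20 and CDH23 averaged 1.93 to 8.12, so the count and the median rest mostly on genes near the floor. The catenins tie cadherins to the cytoskeleton. Of 7 with a row 4 rose and 2 fell, beside 9.97% and 8.39% of all genes, with a median of 0.29. JUP (plakoglobin), a catenin of desmosomes and adherens junctions, rose by 1.54 (SE 0.079, adjusted p = 2.0e-09), from 942 ± 70.8 to 2740 ± 149 normalized counts. ARVCF (0.93), CTNNB1 (0.44) and CTNNA1 (0.29), which bind cadherin tails or link them to actin, rose as well. CTNNAL1 (-0.58) and PKP4 (-0.50) fell.

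Among 32 epithelial genes with a row 7 rose and 3 fell, beside 9.97% and 8.39% of all genes, and the median was 0.30. Beside JUP the largest rises were those of the protease inhibitor SPINT1 (0.92), the tight junction protein F11R (0.78) and the keratin KRT19 (0.77). The tight junction gene CLDN1 (-0.87), the splicing factor ESRP2 (-0.82) and the desmosomal PKP2 (-0.64) fell. Among 25 mesenchymal genes with a row 8 rose and 2 fell, beside the same shares of all genes, and the median was 0.33. PDGFRB (1.60), a growth factor receptor of mesenchymal cells, the collagens COL6A3 (1.18) and COL5A1 (0.95) and the intermediate filament gene NES (0.88) rose. The receptor tyrosine kinase AXL (-0.51) and the secreted FSTL1 (-0.50) fell. In each list of markers of other cell types 1 gene rose in the co-knockdown and none fell. KRT19 was the luminal one (of 6, median -0.07), PDGFRB the fibroblast one (of 3, median 0.42), PECAM1 the endothelial one (log2 fold change 3.03) and CD14 the leukocyte one (1.20). The other endothelial and leukocyte genes with a row, KDR (-0.28, adjusted p = 0.202, edgeR) and PTPRC (-0.92, adjusted p = 0.582), had differences of the opposite sign that did not pass. From siControl to siYAP+TAZ, the summed counts of the 6 luminal genes with a row went from 6817-7076 to 9133-12413, of the 3 fibroblast genes from 313-540 to 643-785, of the 2 endothelial genes from 151-195 to 211-279 and of the 2 leukocyte genes from 18.2-23.1 to 36.7-45.2. Their part in the list counts was not tested.

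**Figure D5:**
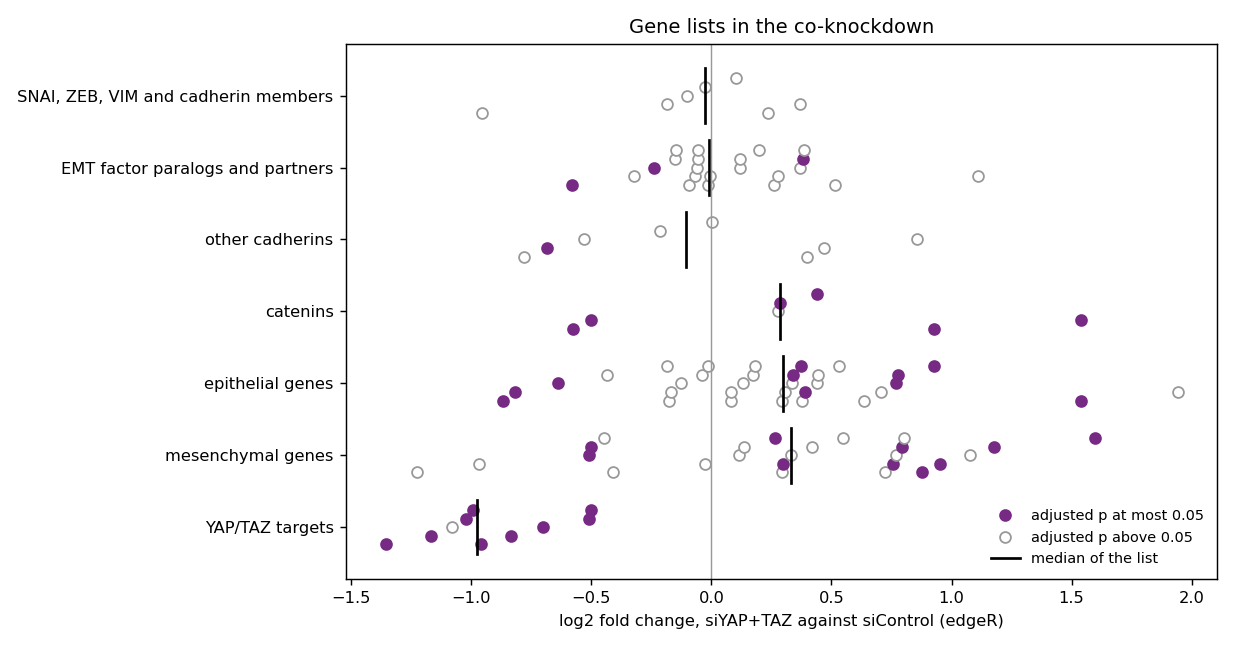
Log2 fold change of each gene in siYAP+TAZ against siControl, by list. Filled points passed an adjusted p of 0.05 and black lines are list medians. None of the 7 genes is filled, against 9 of 10 YAP/TAZ targets.

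The genes whose log2 CPM followed each of the 6 genes with enough reads most closely over the 15 libraries, among 11723 searched, are given as a description, since the libraries share groups and runs. SNAI1 was nearest to FOSB (Pearson r = 0.944), H4C9 (0.928) and ARC (0.925). For SNAI2 they were DPF1 (0.894), PRR3 (0.867) and ABHD3 (0.861), and for CDH11 MIR100HG (0.954), SEL1L (0.950) and MFGE8 (0.945). VIM was nearest to GPAT4 (0.940), CHST3 (0.932) and PCDH7 (0.907), and ZEB1 to RIPK1 (0.831), ZNF24 (0.824) and APOOL (0.809). ZEB2 had the weakest neighbours, IPO11 (0.762), SHPK (0.740) and GMFB (0.737). None of these 6 genes was among the nearest 3 of another, and CDH2, with too few reads, was not searched.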

How the data were processed

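The authors prepared polyadenylated RNA, sequenced single reads and processed them with the UTAP pipeline (cutadapt, STAR 2.4.2a, GRCh38). They deposited raw read counts per gene and library, which were used here. The authors' normalized values, rlog values and pairwise DESeq2 results in the same table were not used. Libraries were grouped by their titles. Which libraries share an experimental set is not given in the sources used here, so p-values measure the spread between these libraries.

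The edgeR package (4.0.16, R 4.3.3) was used to scale the counts of all 18858 genes by TMM and to test them (quasi-likelihood, robust, all 15 libraries), with Benjamini-Hochberg adjustment over all genes. Alternatives were DESeq2 1.42.0, limma-voom (limma 3.58.1), other filters and scalings, fewer groups, Control as reference, a block for the run of library numbers, and leaving out each library. The SNAI2 alternatives against the single knockdowns, the MANE length and the within-run ratios were added after seeing the data. Coordinates and lengths came from GENCODE 44, a later annotation release on the same build. The genes and lists were chosen with earlier results of these data known. Named list genes were at most 4 per list and direction with the largest change among calls in siYAP+TAZ and a mean of at least 20 normalized counts. The tests were tested on simulated data first.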

Additional observations from a re-analysis of the deposited data

How the results depend on the processing

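The absence of calls at both thresholds held in all 7 comparisons under every alternative run. At an adjusted p of 0.05 alone, Control in place of siControl gave 1 call in siYAP+TAZ (SNAI2), and with the replicate block of runs the calls became 1 in siTAZ (ZEB1, adjusted p = 0.0489), 2 in siYAP+TAZ against siYAP (SNAI2, and SNAI1 with a log2 fold change of 0.77, SE 0.21, adjusted p = 0.0100), 1 against siTAZ (SNAI2, adjusted p = 0.0067) and 1 in the interaction (SNAI2, adjusted p = 0.0163). Over all genes the block raised the calls from 2.03% to 10.3%, 5.13% to 14.6%, 5.44% to 14.8% and 0.0106% to 0.647% in these 4 comparisons. Deviations from the group means correlated above 0.1 in 26 of 30 pairs of the same run (median 0.455, lowest -0.061) and in 17 of 60 pairs from other runs and groups (median -0.377), so libraries of a run tended to vary together, and 10 of 15 libraries had their highest mean correlation with their own run. As not every pair of a run passed 0.1 and the labels name no set, the block is given here as an alternative. Without the block, the spread between runs stayed in the error of the fit. An absent call in that fit is therefore no evidence of equal levels. Leaving out single libraries gave 0 to 1 calls in siYAP+TAZ against siYAP.

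Of 21 log2 fold changes of the 7 genes against siControl, 11 kept direction and side throughout, and 18 of 336 refits reversed a sign, all of values that had not passed the test. With Control as reference SNAI1 in siYAP+TAZ was -0.15, CDH11 -0.090 in siYAP and -0.057 in siTAZ, and CDH2 0.22 in siTAZ. With library size only, ZEB1 was 0.017 in siYAP+TAZ and VIM 0.0062 in siYAP. Over the left-out libraries the range was -0.12 to 0.30 (CDH11) and -0.64 to 0.31 (SNAI1) in siTAZ with -0.036 to 0.070 for ZEB2, -0.11 to 0.35 (CDH11) and -0.096 to 0.054 (VIM) in siYAP, and -0.10 to 0.71 (SNAI1) and -0.047 to 0.024 (ZEB1) in siYAP+TAZ. Of values that kept their sign, SNAI1 in siYAP was -0.025 without library 17 and -0.89 with Control as reference, CDH11 in siYAP+TAZ 0.15 without library 27 and 0.64 without library 30, and CDH2 ran from -1.5 to -0.46 in siYAP+TAZ. The cause was not tested. CDH2 had 1 to 24 and SNAI1 13 to 97 reads per library.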

Other observations

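In the single knockdowns, JUP was the epithelial gene past an adjusted p of 0.05 in both, with log2 fold changes of 0.40 in siYAP (SE 0.078, adjusted p = 0.0159, edgeR) and 0.50 in siTAZ (SE 0.078, adjusted p = 0.00396). PKP4, a catenin of the p120 family, was lower in siYAP (-0.53, SE 0.088, adjusted p = 0.00762), with -0.05 in siTAZ (SE 0.088, adjusted p = 0.846). The difference between the 2 knockdowns was not tested. In siTAZ the collagens COL5A1 (1.13, SE 0.20, adjusted p = 0.0140) and COL6A3 (1.03, SE 0.21, adjusted p = 0.0232) were higher. Of the further EMT factors and partners, 0 of 22 passed an adjusted p of 0.05 in edgeR in either single knockdown, where 0.933% (siYAP) and 2.03% (siTAZ) of all genes did, a share at which a list of this size may hold no call. At an unadjusted p under 0.05 there were 4 of 22 in each, beside 11.9% and 16% of all genes.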
